A study of Mus musculus with 9 samples.

Results

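The annexins and the formyl peptide receptors Fpr1 and Fpr2 are followed here through LPS stimulation and LXR activation of mouse macrophages. The members are Anxa1, Anxa2, Anxa3, Anxa4, Anxa5, Anxa6, Anxa7 and Anxa11 and both receptors, 10 of the 24061 gene symbols of the count table, chosen by name. Reads on several rows of 1 symbol were summed. RNA-seq was run on bone-marrow-derived macrophages (BMDMs), primary macrophages grown from C57BL/6J marrow in L-cell conditioned medium for 7 days, deprived of serum for a day and treated on day 8. Female mice of 8 to 10 weeks gave the marrow. Veh cells received DMSO, the solvent of the agonist. LPS cells received DMSO and then 10 ng/mL of LPS, a TLR4 agonist from bacteria, for 2 hr. T0+LPS cells received 500 nM of the LXR agonist T0901317 (T0) for 3 hr before the same LPS stimulation, with the agonist still present. Each group has 3 libraries from separately differentiated cultures, so p-values measure the spread between cultures. The sources used here do not state when Veh cells were harvested relative to the end of LPS stimulation, and no group received T0 without LPS.

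Annexins are cytosolic proteins that bind acidic phospholipids in the presence of calcium and act in membrane trafficking, repair and scaffolding. Anxa1 also leaves the cell and, as the protein or as peptides of its N terminus, is a ligand of the formyl peptide receptor Fpr2, through which it limits neutrophil recruitment and favours the uptake of dying cells. Fpr1 and Fpr2 are G protein-coupled receptors of myeloid cells that recognise formylated peptides of bacteria and mitochondria and drive chemotaxis, calcium release and the oxidative burst.

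Libraries held 13299044 to 16467983 counted reads. All pairs of libraries within a group differed beyond sampling noise (chi-square over its degrees of freedom, 2.75 to 7.18). Levels are CPM, counts divided by library size scaled with TMM factors, which correct for differences in library composition. These factors ran from 1.136 to 1.144 in Veh and from 0.931 to 0.948 in the stimulated groups, so scaling bears on every comparison with Veh. Treatment checks moved as their labels say. The 2 LPS checks, Il1b and Tnf, rose with LPS (Il1b from 1.78 ± 1.20 to 1143 ± 136 CPM, SD, n = 3). Tnf has only 48 bases of its own and 438 reads over the 9 libraries, so its level is poorly measured. The 2 LXR targets Abca1 and Abcg1 rose with T0 (Abca1 by 1.47 on the log2 scale, with an adjusted p of 1.4e-10 in edgeR). Of 6 macrophage markers in the table, 5 were well above the floor of 3 reads, and Itgam, which has 3 bases of its own, was at 0. The summed macrophage markers were 25883 to 28111 CPM in Veh, 29269 to 30347 CPM in LPS and 31617 to 33167 CPM in T0+LPS. Most of that sum was Lyz2, at 19749, 21425 and 23736 CPM, and the markers did not move as 1. With LPS and TMM scaling, Emr1, Csf1r and Lyz2 were called higher (log2 fold change 0.12 to 0.30), Fcgr1 was called lower (-0.84, adjusted p = 8.5e-07, edgeR) and Cd68 was not called (0.02). T cell, B cell and fibroblast markers summed to less than 1 CPM in every library, and the 3 dendritic cell markers to at most 1.19 CPM. The endothelial list summed to between 7.21 and 14.0 CPM, nearly all of it Kdr. In RNA of a whole culture, fewer cells of a type and less RNA per cell cannot be told apart.

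Anxa6 and Anxa7 could not be measured. Both have 2 RefSeq transcripts in the table, and reads on bases that transcripts share are not in the deposited counts. Anxa6 (mm10 chromosome 11, bases 54978962 to 55033471, minus strand) kept 18 bases of its own, 0.676% of its longer transcript. Its counts were 0, 2 and 0 in Veh, 1, 0 and 1 in LPS and 0, 1 and 0 in T0+LPS. Anxa7 (chromosome 14, bases 20455261 to 20480133, minus strand) kept 115 bases, 3.88% of its longer transcript, and had 37 reads over the 9 libraries. Neither passed the filter on low counts, so 8 of the 10 members were tested in each comparison.

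Anxa1 was the most abundant member in every group. Compared per kilobase of exon, its level was 2540 ± 1.65 CPM per kilobase (SD, n = 3) in Veh, 2892 ± 198 in LPS and 2527 ± 174 in T0+LPS, which ranked 11th, 11th and 13th among 17621 genes with 1 transcript and at least 200 bases. Anxa5, a phosphatidylserine binder, followed at 634, 809 and 805 CPM per kilobase in Veh, LPS and T0+LPS. Anxa2, which forms a membrane scaffold with S100a10, stood at 513, 726 and 705 CPM per kilobase. The next annexins in order were Anxa4, Anxa3 and Anxa11, at 365, 105 and 27.0 CPM per kilobase in Veh.

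The receptors were the lowest members in Veh, Fpr2 at 5.88 ± 0.837 and Fpr1 at 3.31 ± 0.564 CPM per kilobase (SD, n = 3). In LPS, Fpr2 passed Anxa11, with 48.7 against 30.0 CPM per kilobase, and the same order held in T0+LPS with 53.0 against 27.6. Fpr2 moved from rank 5579 in Veh to 1660 in LPS and 1545 in T0+LPS, and Fpr1 from 6387 to 3234 and 2648. Neighbours in the order did not overlap between libraries in any group, with the exception of Anxa11 and Fpr1 in T0+LPS, both at 27.6 CPM per kilobase.

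**Figure D1:**
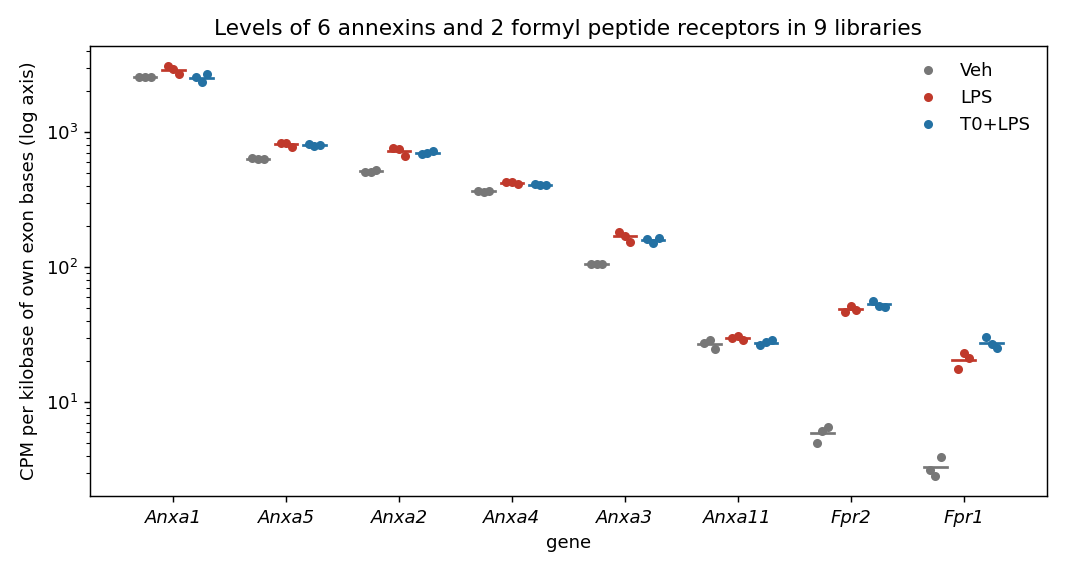
Level of each measured member in each library, as TMM-scaled CPM per kilobase of its own exon bases on a log axis, with a bar at the mean of the 3 libraries of Veh, LPS and T0+LPS. Anxa1 lies highest, with group means of 2527 to 2892 CPM per kilobase, and the receptors start lowest in Veh. Fpr2 lies above Anxa11 in both stimulated groups, and Fpr1 lies below Anxa11 in LPS and level with it in T0+LPS.

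Fpr1 and Fpr2 lie next to each other on chromosome 17 of mm10 and point away from each other. Fpr1 occupies 17876471 to 17883939 on the minus strand and Fpr2 17887824 to 17893952 on the plus strand, with 3884 bases between their starts. Each has 2 exons and 1 transcript in the table, and no other symbol lies on their exons. The 250 bases before each start, printed because both receptors moved together with LPS, were taken from RefSeq promoter sequence of GRCm38.p6, the mm10 assembly. They are the windows chr17:17883940-17884189 (minus strand) and chr17:17887574-17887823 (plus strand), written 5′ to 3′, with a match to the STAT letters TTCNNNGAA in capitals.
Fpr1: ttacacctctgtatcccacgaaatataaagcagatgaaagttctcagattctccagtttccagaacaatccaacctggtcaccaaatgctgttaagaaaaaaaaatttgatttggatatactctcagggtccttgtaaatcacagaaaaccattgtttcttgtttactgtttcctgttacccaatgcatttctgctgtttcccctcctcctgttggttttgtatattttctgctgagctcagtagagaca
Fpr2: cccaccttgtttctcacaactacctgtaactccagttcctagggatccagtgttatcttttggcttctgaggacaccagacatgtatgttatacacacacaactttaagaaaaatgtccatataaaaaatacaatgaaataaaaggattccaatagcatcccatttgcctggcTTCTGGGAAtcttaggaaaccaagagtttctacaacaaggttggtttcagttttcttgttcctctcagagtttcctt
Matches to 9 motifs were searched on both strands. They were NF-kB (GGG and TTTCC with 2 bases between them, in 1.41% of 32851 promoters of this length), AP-1 (TGANTCA, 6.75%), the cyclic AMP element (TGACGTCA, 1.55%), PU.1 (GAGGAAGT, 2.44%), C/EBP (TTGCNNAA, 9.56%), IRF (GAAA and again GAAA with 2 bases between them, 2.98%), STAT (7.02%), the nuclear receptor half-site (AGGTCA, 14.0%) and DR4, the LXR-type repeat of that half-site with 4 bases between the copies (0.0152%). The Fpr1 window held none of these letters, and the Fpr2 window held the STAT letters alone, 77 to 69 bases before the start.

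Both receptors rose with LPS from low levels. Fpr1 was at 4.17, 3.77 and 5.21 CPM in the Veh libraries and at 23.1, 30.6 and 28.1 CPM in the LPS libraries. Those Veh values rest on 78, 57 and 90 reads and the LPS values on 292, 421 and 364 reads. The highest Veh library lay far below the lowest LPS library, and the fitted log2 fold change was 2.64 (SE 0.13, adjusted p = 2.7e-11, edgeR), a 6.22-fold rise. Fpr2 was at 6.41, 7.93 and 8.51 CPM in Veh and at 60.2, 67.1 and 62.2 CPM in LPS. Again no libraries overlapped, and the log2 fold change was 3.06 (SE 0.09, adjusted p = 2.1e-14, edgeR), an 8.34-fold rise. Of 9559 genes tested, 2.78% had a larger log2 fold change than Fpr1 and 2.19% a larger one than Fpr2. With both receptors, 8 of 8 tested members were called higher and none overlapped between groups. Of all genes tested, 64.1% were called, 32.9% higher and 31.2% lower, and 67.3% did not overlap. A call or a lack of overlap is thus by itself common in this comparison and not particular to the members.

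The receptors are also known from neutrophils, and neutrophil markers were read beside them. Of 10 such markers in the table, 3 averaged more than 3 reads. Their sum was 78.3 to 83.9 CPM in Veh, 87.2 to 100.1 in LPS and 85.6 to 98.9 in T0+LPS. Nearly all of it was the collagenase gene Mmp8, at 78.8, 90.7 and 91.3 CPM, which macrophages can also express. Of the defining markers, Retnlg was at 0, S100a8 averaged 0.987, 2.28 and 1.62 CPM, and Camp, Ngp, Ltf, Cxcr2, Mpo and Elane each averaged below 1 CPM in every group. S100a9 was also at 0 but has 3 bases of its own and so was not measured. For LPS against Veh, 2 of the list were tested, and both were called higher without overlap, where 32.9% of all genes were higher. They were S100a8 (log2 fold change 1.22, adjusted p = 0.001, edgeR) and Mmp8 (0.21, adjusted p = 0.0045). The part of this list in the receptor levels was not tested.

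T0 before LPS was followed by a further rise of Fpr1. The T0+LPS libraries were at 40.5, 35.4 and 33.5 CPM, on 532, 508 and 483 reads, each above the highest LPS library at 30.6 CPM. The log2 fold change was 0.41 (SE 0.10, 95% interval 0.20 to 0.62, adjusted p = 0.031, edgeR), a 1.33-fold difference. Fpr1 was the 1 member of 8 called in this comparison, where 3.18% of 9348 genes were called, 1.35% higher and 1.83% lower. The call was lost without LPS replicate 1 (0.31, adjusted p = 0.18), the lowest LPS library. It was also lost without T0+LPS replicate 1 (0.33, adjusted p = 0.12), the highest of its group, and without T0+LPS replicate 2 (0.44, adjusted p = 0.081). Over all alternatives its adjusted p ran from 2.8e-05 to 0.18, and its log2 fold change from 0.31 to 0.50. The summed macrophage markers, mostly Lyz2 (0.15, adjusted p = 0.064, edgeR), did not overlap between these groups. Of the 5 tested, 0 were called. Fcgr1 was at 0.33 without overlap (adjusted p = 0.11, edgeR), Emr1 at 0.11, Csf1r at 0.03 and Cd68 at -0.02. The part of these markers in the Fpr1 value was not tested. The neutrophil marker sums of the groups overlapped.

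Fpr2 was not called in the same comparison. Its T0+LPS libraries were at 73.2, 67.3 and 65.6 CPM, and the lowest of them lay inside the LPS range of 60.2 to 67.1. The log2 fold change was 0.12 with a 95% interval of -0.01 to 0.25 (adjusted p = 0.43, edgeR). Against Veh, both receptors were higher in T0+LPS, Fpr1 8.13-fold (log2 fold change 3.02, SE 0.11) and Fpr2 8.91-fold (3.15, SE 0.09). The 3 comparisons share libraries, so their values are not independent.

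The balance of the receptors, which needs no scaling between libraries, was also read in each library. Fpr1 had 0.637, 0.465 and 0.600 times the reads per base of Fpr2 in Veh, 0.376, 0.447 and 0.443 times in LPS and 0.542, 0.515 and 0.500 times in T0+LPS. LPS libraries were all below both other groups, and T0+LPS lay within the Veh range. The mean log2 ratio was 0.30 higher in T0+LPS than in LPS and lower in LPS than in Veh by a difference of -0.42. Each gave p = 0.1 in a two-sided exact permutation test, the smallest that 3 against 3 libraries allows, and 0.12 adjusted over 6 tests of ratios chosen after their values were seen.

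**Figure D2:**
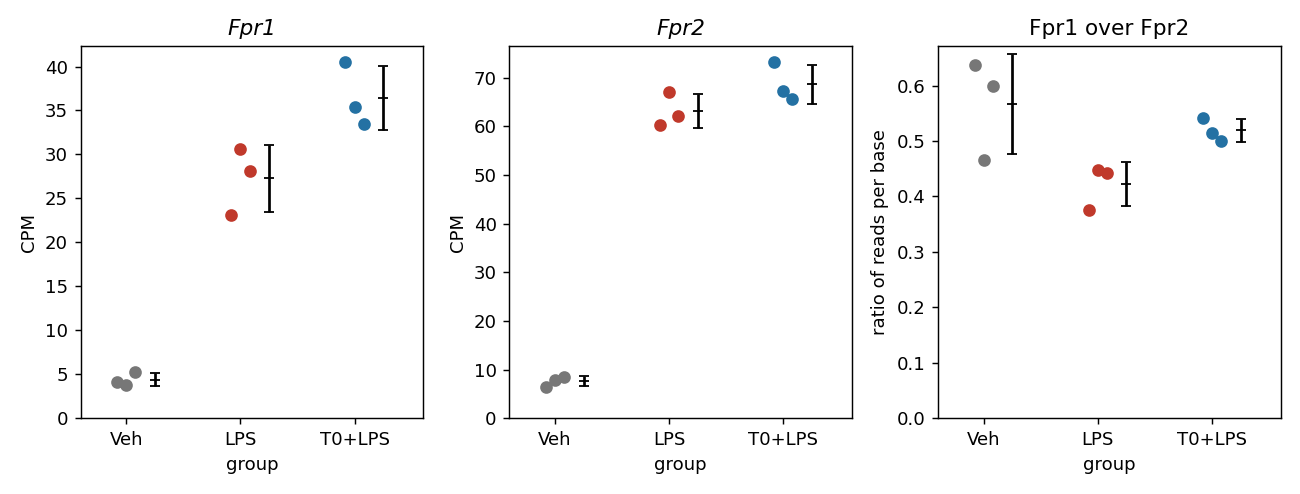
Level of Fpr1 and of Fpr2 in CPM and the ratio of their reads per base, by group, with 1 point per library and the mean ± SD of 3 libraries at its right. Fpr1 is separate in all 3 groups (Veh up to 5.21, LPS 23.1 to 30.6, T0+LPS 33.5 to 40.5 CPM), while Fpr2 overlaps between LPS and T0+LPS.

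Anxa1, the ligand, occupies bases 20373434 to 20390671 of chromosome 19 (mm10, minus strand), with 13 exons and 1395 bases. Its 250 bases before the start, shown as the promoter of the most abundant member (RefSeq, GRCm38.p6, chr19:20390672-20390921, minus strand, 5′ to 3′), hold C/EBP letters 143 to 136 bases before the start, in capitals, and none of the other letters searched.
Anxa1: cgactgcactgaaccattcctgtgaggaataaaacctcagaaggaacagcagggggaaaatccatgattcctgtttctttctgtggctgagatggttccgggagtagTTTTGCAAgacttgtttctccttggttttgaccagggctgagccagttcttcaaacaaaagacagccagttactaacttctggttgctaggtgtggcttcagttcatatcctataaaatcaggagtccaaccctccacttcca
In the other annexin promoters with an entry, Anxa2 held AP-1 letters 95 to 89 bases before its start, Anxa4 held NF-kB letters 55 to 46 bases before the start used by its table entry, and Anxa5, Anxa7 and Anxa11 held none. An additional Anxa4 start in RefSeq has C/EBP letters before it. Promoters were matched for 8 of the 10 members, without Anxa3 and Anxa6.

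Anxa1 was at 3546, 3544 and 3541 CPM in Veh, at 4273, 4099 and 3733 CPM in LPS and at 3564, 3266 and 3748 CPM in T0+LPS. The Veh libraries were nearly equal, all LPS libraries were above them, and T0+LPS spanned the Veh values and reached into the LPS range. With LPS the log2 fold change was 0.19 (SE 0.05, adjusted p = 0.0020, edgeR), a 14.1% rise. This direction depends on scaling, since library totals without TMM factors gave -0.09 (adjusted p = 0.060). That scaling moved the median of all genes to -0.28, and Anxa1 lay above the median under either.

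With T0 before LPS, the log2 fold change of Anxa1 was -0.19 (SE 0.06, 95% interval -0.31 to -0.08), with an adjusted p of 0.081 from edgeR, so it was not called. It was called, at about the same size, with no filter on low counts (adjusted p = 0.00066), by DESeq2 (0.043), in a fit to all 9 libraries (0.039) and without LPS replicate 3, the lowest LPS library (-0.25, adjusted p = 0.0089). Over all alternatives the adjusted p ran from 0.00066 to 0.41. T0+LPS differed from Veh by -0.03 with an interval of -0.12 to 0.06 (adjusted p = 0.56, edgeR), and by -0.29 (adjusted p = 1.2e-05) under library totals.

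The share of Anxa1 among the 6 measured annexins, per length, does not depend on scaling between libraries. It was 60.7%, 61.0% and 60.4% in Veh, 58.0%, 57.1% and 56.8% in LPS and 54.7%, 53.0% and 55.8% in T0+LPS. The groups did not overlap, and each pair gave p = 0.1 in the exact permutation test, again the smallest possible, with 0.12 after adjustment over the same 6 tests. The difference in mean share was -3.42 percentage points for LPS against Veh and -2.76 for T0+LPS against LPS.

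Anxa3, Anxa2 and Anxa5 rose most among the annexins with LPS. Anxa3, an annexin of myeloid granules on chromosome 5 (96793385 to 96845968, plus strand), was at 168, 169 and 168 CPM in Veh and 291, 272 and 245 CPM in LPS. Its log2 fold change of 0.68 (SE 0.05, adjusted p = 1.4e-08, edgeR) was exceeded by 12.5% of genes tested. Anxa2, on chromosome 9 (69453683 to 69491785, plus strand), was at 697, 691 and 725 CPM in Veh and 1046, 1029 and 917 CPM in LPS, and its log2 fold change was 0.50 (SE 0.05, adjusted p = 1.6e-07). In both genes every LPS library was above every Veh library, and both kept a call and their direction under library totals, at 0.40 for Anxa3 and 0.22 for Anxa2.

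Anxa5, on chromosome 3 (36448924 to 36475887, minus strand), was at 1099, 1081 and 1096 CPM in Veh and 1420, 1430 and 1334 CPM in LPS, and its log2 fold change was 0.36 (SE 0.04, adjusted p = 9.8e-07, edgeR). Under library totals it was 0.07 (adjusted p = 0.088) and no longer called. Anxa4, on chromosome 6 (86736840 to 86793584, minus strand), rose from 732, 725 and 735 CPM to 850, 850 and 825 CPM, a log2 fold change of 0.21 (SE 0.04, adjusted p = 0.00016). Anxa11, an annexin that links RNA granules to lysosomes, lies on chromosome 14 (25842155 to 25886804, plus strand). It went from 66.0, 68.7 and 59.5 CPM in Veh to 71.4, 74.3 and 69.6 CPM in LPS, a log2 fold change of 0.15 (SE 0.06, adjusted p = 0.030). Under library totals Anxa4 turned to -0.08 (adjusted p = 0.066) and Anxa11 to -0.13 (adjusted p = 0.051), leaving 4 members called. The Anxa11 call was also lost without Veh replicate 3 (adjusted p = 0.19), LPS replicate 1 (0.062) or LPS replicate 2 (0.12), with no filter (0.062) and by DESeq2 (0.081).

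**Figure D3:**
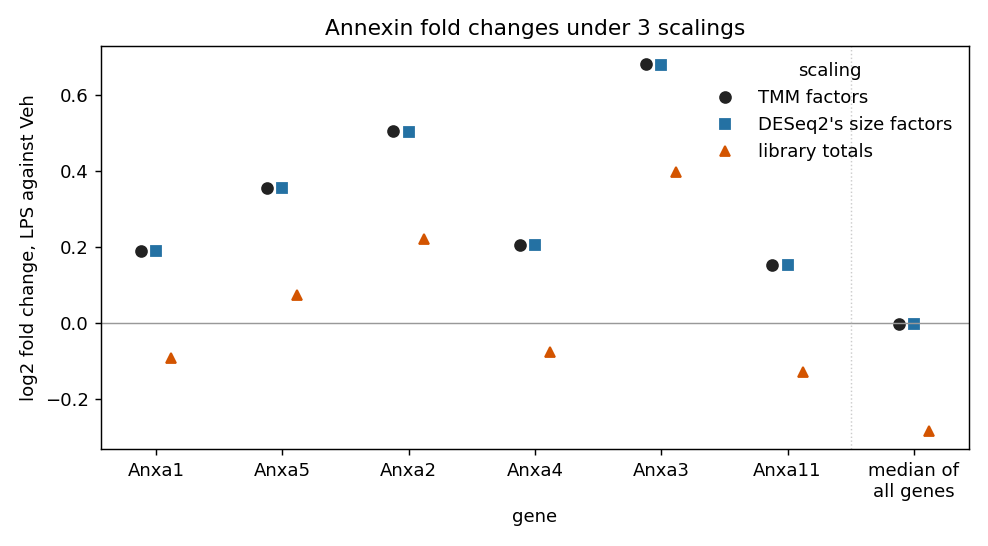
Log2 fold change of LPS against Veh for 6 annexins and for the median of all genes tested, with TMM factors, DESeq2's size factors or library totals alone. Library totals lower every value by about as much as the median, which moves to -0.28, and Anxa1, Anxa4 and Anxa11 then lie below 0.

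None of the 6 measured annexins was called between T0+LPS and LPS, where 3.18% of all genes were called. Anxa2, at 946, 969 and 992 CPM in T0+LPS, had a log2 fold change of -0.04 (95% interval -0.15 to 0.07). Anxa3, at 257, 240 and 263 CPM, had -0.09 (-0.21 to 0.04), and Anxa4, at 831, 809 and 807 CPM, had -0.05 (-0.13 to 0.04). Anxa5 was closest to no difference, at 1417, 1356 and 1390 CPM and -0.01 (-0.10 to 0.09). Anxa11, at 63.2, 66.4 and 68.7 CPM, had -0.12 (-0.24 to 0.00, adjusted p = 0.36 from edgeR), and its libraries lay below all LPS libraries. Fpr1 and Anxa11 were the 2 of 8 members with no overlap between LPS and T0+LPS, where 19.1% of genes did not overlap. The median log2 fold change of the 8 members was -0.04, and the median over all genes was 0.00.

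Against Veh, 6 of 8 members were higher in T0+LPS and the same 6 did not overlap, where 65.3% of genes were called, 32.4% higher and 32.9% lower, and 69.4% did not overlap. Anxa3 was higher by 0.57 on the log2 scale (SE 0.04), Anxa2 by 0.44 (SE 0.03), Anxa5 by 0.32 (SE 0.03) and Anxa4 by 0.14 (SE 0.03, adjusted p = 0.0016, edgeR). Anxa11 differed from Veh by 0.01 (-0.11 to 0.13) and, with Anxa1, was not called. Library totals lowered the median of all genes to -0.29, and under them Anxa4 was called lower at -0.13, Anxa11 lower at -0.25 and Anxa5 lost its call at 0.06.

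**Figure D4:**
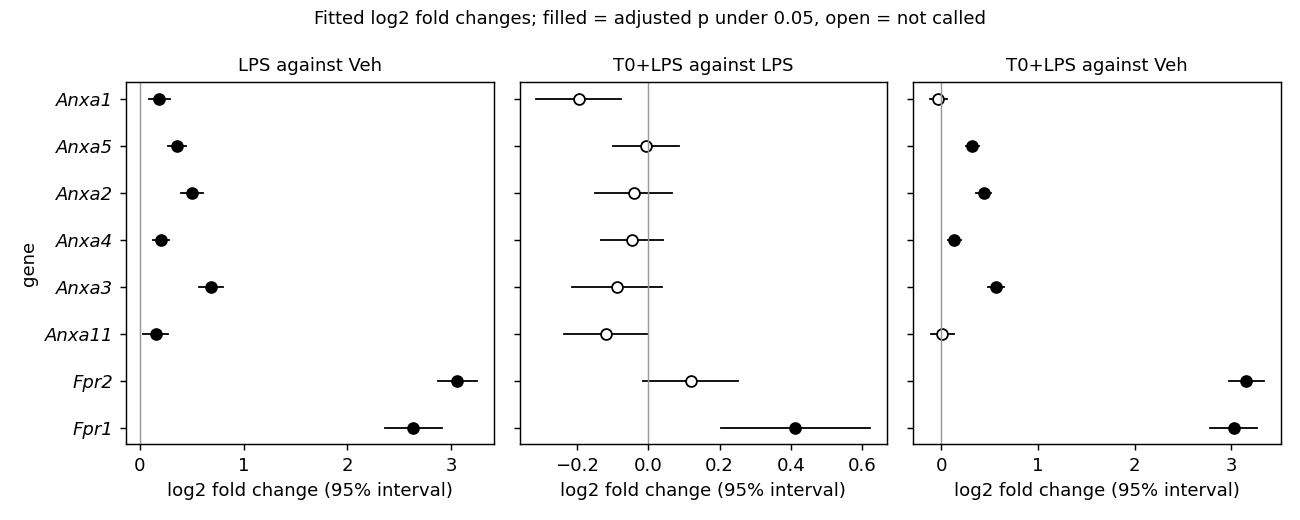
Fitted log2 fold change of each tested member with its 95% interval in the 3 comparisons, each panel on its own scale, with filled points for an adjusted p under 0.05. All 8 members are filled for LPS against Veh (0.15 to 3.06), Fpr1 alone for T0+LPS against LPS (0.41), and all but Anxa1 and Anxa11 for T0+LPS against Veh.

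Of 8 further annexin and formyl peptide receptor genes in the table, 7 had at most 2 reads over the 9 libraries. Among them, Fpr3, Fpr-rs3, Fpr-rs4, Fpr-rs6 and Anxa13 have 1 transcript each, while Anxa8 and Anxa10 have 78 and 100 bases of their own, fewer than Anxa7, and so were not measured. The Fpr-rs genes are close relatives of Fpr2, and the treatment of reads that align to several genes is not given in the sources used here. Anxa9, named here after its values were seen, has 227 bases of its own and averaged 1.10 CPM in Veh and 0.588 CPM in LPS. It was lower by -0.89 on the log2 scale (SE 0.32, adjusted p = 0.024, edgeR).

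Of 8 genes whose products bind annexins, 7 were tested, and 1 was higher and 1 lower with LPS, where 32.9% of all genes were higher and 31.2% lower. S100a10, the partner of Anxa2, rose by 0.31 (SE 0.05, adjusted p = 7.5e-05, edgeR) from 115 ± 3.63 to 142 ± 9.47 CPM (SD, n = 3). Ahnak, a giant scaffold that binds the Anxa2 and S100a10 complex, fell by -0.32 (SE 0.05) from 3162 ± 24.3 to 2533 ± 198 CPM. The other 5 were not called, and the median over the 7 was -0.02. Under library totals, 5 of the 7 were lower and S100a10 was not called (0.03). The median over the 7 was then -0.30, and that of all genes was -0.28. With T0 none of the 7 was called, though Ahnak was at -0.21 (adjusted p = 0.056, edgeR) and was called lower by DESeq2 (0.018), with no filter (0.00026), in the fit to all 9 libraries (0.023), with the replicate number as a block (0.026) and without LPS replicate 2 (0.012). Of the 7, 1 was called higher with no filter and without LPS replicate 2. Over all genes in the main fit, 1.35% were higher and 1.83% lower. Against Veh, T0+LPS had S100a10 higher at 0.22 (-0.04 and not called under library totals) and Ahnak lower at -0.55, and S100a11, outside the rule for naming, lower at -0.14 with overlapping libraries.

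Of 23 signalling genes downstream of the receptors in the table, 13 were tested for LPS against Veh, and 11 were higher and none lower. Of all genes tested, 32.9% were higher and 31.2% lower. The median over the 13 was 0.31, and that of all genes was -0.0019. Pik3r5, a regulatory subunit of the PI3K that G proteins activate, rose from 393 ± 13.2 to 1552 ± 92.9 CPM (SD, n = 3), or by 1.98 on the log2 scale (SE 0.05). Cybb, the catalytic subunit of the phagocyte NADPH oxidase, rose from 2162 ± 55.7 to 5076 ± 203 CPM (1.23, SE 0.04). Gnai3, an inhibitory G protein subunit, rose by 0.68 (SE 0.04) and Ncf4, a cytosolic oxidase subunit, by 0.59 (SE 0.04). Under library totals the list split into 4 higher and 5 lower, with a median of 0.02, where the median of all genes was -0.28. The shares of all genes given above are those with TMM factors. Of the list, 8 genes were never tested, each with several transcripts and at most 13 reads, including the arrestin genes Arrb1 and Arrb2 and the receptor kinase gene Grk6.

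With T0 before LPS, 2 of 15 tested signalling genes were higher and none lower, where 1.35% of all genes were higher and 1.83% lower, and the median of the 15 was 0.02. Rac2, the haematopoietic Rac GTPase that acts in chemotaxis and the oxidase, was at 384, 417 and 375 CPM in LPS and 468, 467 and 475 CPM in T0+LPS. Its log2 fold change was 0.26 (SE 0.05, adjusted p = 0.0048, edgeR). Prex1, a Rac activator that responds to PI3K and G protein subunits, was at 565, 593 and 627 CPM in LPS and 685, 749 and 685 CPM in T0+LPS (0.25, SE 0.05, adjusted p = 0.014). Neither gene overlapped between the groups, and the Prex1 call was lost without LPS replicate 1 (0.21, adjusted p = 0.13) or T0+LPS replicate 2 (0.21, adjusted p = 0.087). Against Veh, 11 of 14 tested signalling genes were higher in T0+LPS and none lower (32.4% and 32.9% of all genes). Library totals gave 7 higher and 3 lower, with a median of 0.09 where that of all genes was -0.29.

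**Figure D5:**
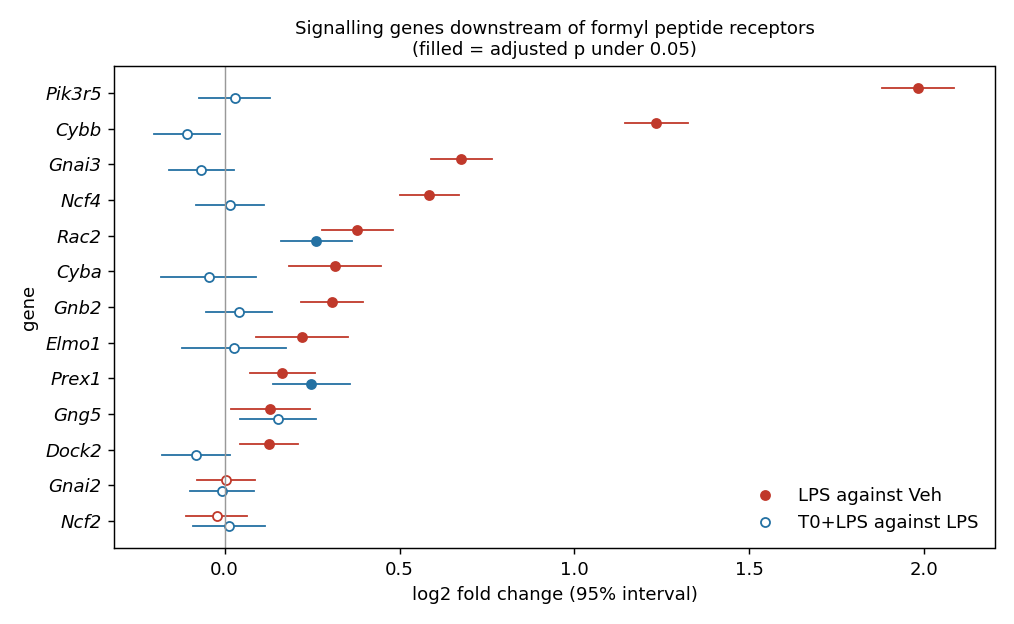
Log2 fold change with its 95% interval for the receptor signalling genes tested in both comparisons, LPS against Veh and T0+LPS against LPS, with filled points for an adjusted p under 0.05. Pik3r5 (1.98) and Cybb (1.23) stand out with LPS, and Rac2 (0.26) and Prex1 (0.25) are the filled points for T0+LPS against LPS.

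Of 8 genes for phospholipase A2, eicosanoid enzymes and other receptors of lipid or peptide mediators, 6 were tested, and 3 were higher with LPS, where 32.9% of all genes were higher. Gpr18, a receptor linked to resolvin signalling, rose from 1.32 ± 0.123 to 10.2 ± 1.76 CPM (SD, n = 3, log2 fold change 2.96, SE 0.18). Cmklr1, the chemerin receptor, rose from 40.8 ± 0.550 to 102.9 ± 5.65 CPM (1.34, SE 0.05). Pla2g4a, a cytosolic phospholipase A2, an activity that Anxa1 was first described as inhibiting, rose by 0.59 (SE 0.09). Under library totals 3 of the 6 were higher and 2 lower, with a median of -0.03 where that of all genes was -0.28. With T0 before LPS, none of the 6 was called, where 3.18% of all genes were called, and the median of the 6 was -0.07. Against Veh the same 3 were higher in T0+LPS, where 32.4% of all genes were higher and 32.9% lower. Pla2g4a was higher by 0.29 (adjusted p = 0.029, edgeR). That call was lost by DESeq2 (0.31, adjusted p = 0.071), under library totals (0.03) and in 3 of 6 fits with a library left out (Veh replicate 1, Veh replicate 3 or T0+LPS replicate 2).

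Genes whose levels ran most like those of the ligand and receptors were read over the 9 libraries and 7298 genes, as a description of libraries that fall into 3 groups. Anxa1 was closest to Itgb2, the leukocyte integrin beta chain, with a Pearson r of 0.97, then to Atic (0.96) and Ap1s3 (0.94). Fpr1 was closest to Mmd, Ppfibp2 and Cry1, all at 0.996. Fpr2 was closest to Casp4, the sensor caspase for cytosolic LPS, and to Samsn1 and H2-Q4, all at 0.999. Casp4 went from 27.1 CPM in Veh to 194.7 in LPS and 206.8 in T0+LPS, and Mmd from 62.9 to 265.8 and 318.5 CPM.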

How the data were processed

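RNA-seq read counts of 9 BMDM libraries were analysed. Per the labels and the study's methods, the authors selected poly(A) RNA, used cutadapt to trim reads and HISAT2 to align them to mm10, and counted them with featureCounts on RefSeq transcripts (strand setting not given in the sources used here). The deposited counts are whole numbers without normalization, in 32850 rows. A table of the authors' own DESeq2 comparison with RPKM ratios and a list of gene names were not used.

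Rows of a symbol were summed. edgeR 4.0.16's quasi-likelihood test (R 4.3.3) was fitted to the whole table, 6 libraries at a time, with TMM factors and filterByExpr. Genes were called at a Benjamini-Hochberg adjusted p under 0.05 over all genes tested. Levels used TMM factors over 9 libraries, and lengths counted bases on no other row. The members, the other lists and the tests were chosen with earlier results of these data known. All members were named, with up to 4 called genes per list and comparison (no overlap, mean of at least 5 CPM, largest change). The fit was tested on simulated data with far fewer changed genes than LPS gave, which does not test the scaling. Alternatives were other scalings, no filter, DESeq2 1.42.0, all 9 libraries, the row with most reads, a replicate block and each library left out. No pairing by the labels' replicate numbers was seen: correlations of deviations were -0.05 to 0.05. Such correlations cannot show that same-numbered cultures had nothing in common. Intervals are 95% confidence intervals of the fitted log2 fold change between groups of 3 libraries, with the spread estimated partly from all genes.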

Additional observations from a re-analysis of the deposited data

How the results depend on the processing

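There were 312 member values under 7 other settings and with each library left out. Of these, 286 kept their direction and their side of the threshold, and 11 changed sign. Among values that kept their sign, 5 gained a call and 10 lost one. Some sign changes also crossed the threshold, and are counted as sign changes alone. Anxa1, Anxa4 and Anxa11 lost their LPS call in this way under library totals. DESeq2's size factors and the row with the most reads in place of the sum changed none of the counts of members called (8 for LPS against Veh, 1 for T0+LPS against LPS, 6 for T0+LPS against Veh). The replicate number as a block left them at 8, 1 and 6 too, though Ahnak was then called for T0+LPS against LPS (-0.21, adjusted p = 0.026), with the pairing correlations given under the methods.

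Library totals alone reduced the members called for LPS against Veh to 4 and turned Anxa1 to -0.093, Anxa4 to -0.076, Anxa11 to -0.13 and Prex1 to -0.12. For T0+LPS against Veh they turned Anxa4 to -0.13, Anxa11 to -0.25 and S100a10 to -0.038. Between T0+LPS and LPS the members called were 2 with no filter, with DESeq2 and in the fit to all 9 libraries, Anxa1 being the gene added, and 0 to 2 with a library left out. They were 0 without LPS replicate 1, and likewise when replicate 1 or 2 of T0+LPS was left out, and 2 without LPS replicate 3. Over all genes the 297 calls became 510 with no filter and 141 to 358 with a library left out. With a library left out, signs changed for values near 0, Anxa5 (-0.036 to 0.011), Pik3r5 (-0.0078 to 0.080) and Ncf4 (-0.0071 to 0.051) for T0+LPS against LPS, and Anxa1 (-0.063 to 0.033) and Anxa11 (-0.046 to 0.052) for T0+LPS against Veh. The causes were not tested. Depth limits Fpr1 in Veh, at 57 to 90 reads.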
